A study of Macaca mulatta with 14 samples.

Results

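The genes described here are the 10 class I and class II histone deacetylases, HDAC1 to HDAC10, in blood cells of aged male rhesus macaques (Macaca mulatta). Members were taken by gene symbol, as every probe set whose single symbol in the platform annotation was one of the 10 names. That gave 16 of the 52865 probe sets on the array and 8 of the 10 genes. HDAC4 and HDAC7 had no such probe set and were not analysed. Of the 16 probe sets, 11 were bright enough to be tested. They cover 7 genes, and HDAC6 had values only below the signal filter.

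Peripheral blood mononuclear cells (PBMC), a mixture of lymphocytes and monocytes separated from blood, were sampled, and all animals were male. A total of 7 control-diet animals (24 to 27 years old) were compared with 7 animals on calorie restriction (CR, 24 to 30 years old), and the titles call the arrays of a diet biological replicates. The design text states 16 years on CR for both diets at once, which is read here as the restricted animals' time on the diet. Total RNA of each sample was hybridised to an Affymetrix expression array. The age of single animals, the degree of restriction and blood cell counts were not used here.

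Histone deacetylases remove acetyl groups from lysines, on histones and on many other proteins, and removal from histones is mostly linked to tighter chromatin and lower transcription. Class I enzymes (HDAC1, HDAC2, HDAC3 and HDAC8) are largely nuclear. HDAC1 and HDAC2 are the catalytic subunits of the SIN3, NuRD, CoREST and MiDAC corepressor complexes, and HDAC3 is that of the NCoR and SMRT complex. Class IIa enzymes (HDAC4, HDAC5, HDAC7 and HDAC9) have weak catalytic activity, bind MEF2 transcription factors and leave the nucleus when kinases phosphorylate them. Class IIb holds HDAC6, a cytoplasmic deacetylase of tubulin, and HDAC10, a deacetylase of polyamines. In leukocytes these enzymes take part in lymphocyte development and in restraint of inflammatory genes. The array measures their transcripts and not enzyme activity or acetylation.

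The levels of the histone deacetylases differed little between diets for most members. HDAC1, HDAC2, HDAC3, HDAC5 and HDAC9 each differed by less than 0.25 log2 units in their brightest probe set. HDAC8 was higher in CR animals by 0.77 ± 0.32 log2 units (standard error, SE, n = 7 per diet) and HDAC10 was lower, at -1.14 ± 0.53, both in dim probe sets. None passed after correction: limma, with Benjamini-Hochberg adjustment over all 26383 tested probe sets, called 0 of the 11 member probe sets at an adjusted p under 0.05, and their adjusted p ran from 0.918 to 0.992. The same fit called 0% of all tested probe sets. At an unadjusted p under 0.05, 2 of the 11 member probe sets stood out (HDAC8 and HDAC10), against 5.12% of all tested probe sets (1350). By direction, this was 1 of 11 on the higher side against 2.29% of all, and 1 of 11 on the lower side against 2.82%. With 1 array left out in turn, both genes were under 0.05 in 5 of 14 fits, 1 of them in 8 fits and neither without CR 4. HDAC8 was under 0.05 in 12 of the 14 fits (not without CR 4 or CR 7) and HDAC10 in 6 (not without control 1, 3, 5, 6 or 7 or CR 1, 2 or 4). The control and CR values overlapped in each of the 11, and over the array they did not overlap in 0.0834% of tested probe sets.

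**Figure D1:**
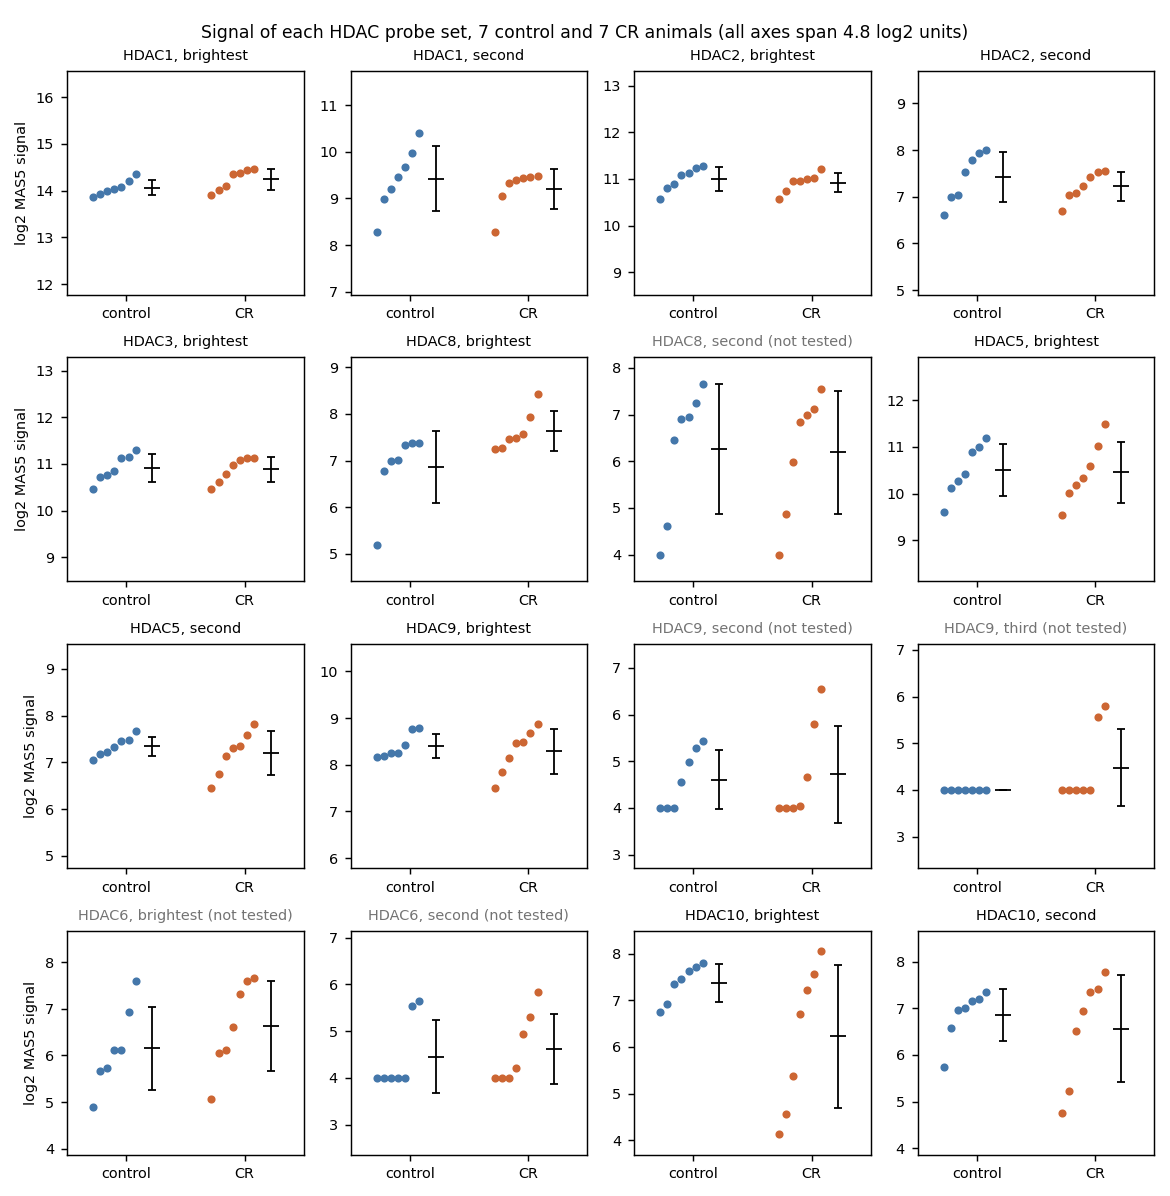
Log2 MAS5 signal (vertical axes, each spanning the same range) of the 16 HDAC probe sets in control (blue) and CR (orange) animals. Each point is 1 animal, sorted by value, bars are mean ± SD of 7 animals, and grey titles mark the 5 probe sets below the signal filter. HDAC10 (brightest) spreads from 4.14 to 8.04 in CR animals against 6.75 to 7.79 in controls.

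Values here are log2 of the MAS5 signal, a scaled brightness per probe set, and signals under 16 were set to 16 (log2 of 4). A probe set's brightness depends on its probes, so levels were not compared between genes. The arrays were close to each other, with a median correlation with the other arrays between 0.879 (control 1) and 0.933 over tested probe sets. The defining markers of PBMC were well above the floor on all arrays: CD14 of monocytes ranged from 7.22 to 12.47, MS4A1 of B cells from 11.74 to 13.87 and NKG7 of cytotoxic lymphocytes from 10.68 to 12.42. The CD3 subunits of the T cell receptor complex, CD3D, CD3E and CD3G, were not represented among the probe sets with a single gene symbol. PF4, a platelet chemokine, ranged from 14.22 to 16.26, so platelet RNA was present too. In such mixed samples, fewer cells of a type and less RNA per cell cannot be told apart.

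Among class I enzymes, HDAC1 was measured by 2 tested probe sets. Its brightest probe set, of a type (suffix s) that can match several related transcripts, ranged from 13.87 to 14.35 in controls (median 14.04) and from 13.92 to 14.47 in CR animals (median 14.36). A total of 4 CR animals exceeded the highest control, and the lower 3 lay within the control range. The difference was 0.17 ± 0.13 (SE, log2), with a 95% interval of -0.10 to 0.45 and an adjusted p of 0.924 (limma). The dimmer HDAC1 probe set had the opposite sign, at -0.22 ± 0.28 (adjusted p 0.95, limma), and 1 CR animal lay above the control median. Its controls ran from 8.28 to 10.39 and its CR values from 8.29 to 9.48. The sign for HDAC1 therefore depends on the probe set.

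HDAC2, the close paralog of HDAC1 that shares its complexes, was slightly lower in CR in both of its probe sets. The brightest ranged from 10.57 to 11.27 in controls (median 11.09) and from 10.57 to 11.20 in CR animals (median 10.97), and 1 CR animal lay above the control median. The difference was -0.081 ± 0.15 (SE, log2; 95% interval -0.40 to 0.24), and the dimmer probe set gave -0.19 ± 0.26. Neither passed (adjusted p 0.963 and 0.952, limma).

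HDAC3, the deacetylase of the NCoR and SMRT complex, had 1 probe set. Its controls ranged from 10.46 to 11.31 (median 10.85) and its CR values from 10.47 to 11.13 (median 10.97). These ranges are nearly the same, and the difference was -0.030 ± 0.17 (SE, log2; 95% interval -0.38 to 0.32, adjusted p 0.99, limma). In fold terms that interval runs from 0.769 to 1.25.

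HDAC8 works outside the large corepressor complexes and deacetylates the cohesin subunit SMC3. Its brightest probe set ranged from 5.19 to 7.38 in controls (median 7.01) and from 7.25 to 8.44 in CR animals (median 7.49). Every CR animal lay above the control median and 5 of the 7 above the highest control, and 4 controls lay below every CR animal. Control 1, at 5.19, was far below the other 6 controls, whose lowest was 6.77. That array also had the highest 3-prime to 5-prime log2 ratios, a measure of RNA integrity, of the 14 arrays (7.50 for GAPDH, 5.38 for EF1A). All 14 arrays were brighter at the 3-prime end, with lowest log2 ratios of 5.06 for GAPDH (control 6) and 3.24 for EF1A (control 2). Control 1 had the lowest median correlation with the other arrays (0.879). The part of RNA integrity in its HDAC8 value was not tested. Controls averaged 6.86 ± 0.77 (SD, n = 7) and CR animals 7.63 ± 0.42, a 1.70-fold difference with a 95% interval of 1.06 to 2.73 before any correction (unadjusted p 0.0291, adjusted p 0.918, limma). Without control 1 the difference was 0.49 ± 0.23 (adjusted p 0.795, limma). The other HDAC8 probe set lay below the filter and had nearly equal means, 6.26 ± 1.39 (SD, n = 7) in controls and 6.19 ± 1.31 in CR. The NK and cytotoxic marker score was also higher in CR animals (median 0.26, against -0.27 in controls), and HDAC8 correlated with it at r = 0.464 over the 14 arrays (rho 0.534, permutation p 0.096 and 0.051, adjusted p 0.491 for r). Without control 4 and control 5 r was 0.566, within controls 0.191 and within CR animals 0.0080. With the scores of T cell, B cell, monocyte and NK markers added to the fit the HDAC8 difference was 0.71 ± 0.41 (SE, unadjusted p 0.103, limma).

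**Figure D2:**
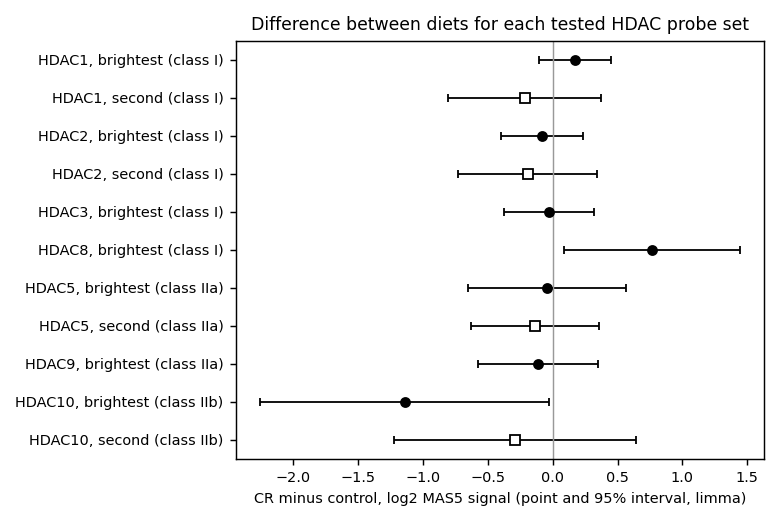
Difference CR minus control in log2 MAS5 signal (horizontal axis) with its 95% interval from limma for the 11 tested HDAC probe sets. Filled circles are the brightest probe set of each gene and open squares the dimmer ones. The intervals of HDAC8 (0.09 to 1.45) and of the brightest HDAC10 probe set (-2.26 to -0.025) leave out 0 before correction for the number tested.

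Among class IIa enzymes, HDAC5 showed wide variation between animals and a small estimated difference between diets. Its brightest probe set ranged from 9.61 (control 1) to 11.18 (control 3) in controls, with a median of 10.41. In CR animals it ranged from 9.55 (CR 7) to 11.49 (CR 1), with a median of 10.33. So the lowest and the highest of all 14 values were both in CR animals, and the difference was -0.045 ± 0.29 (SE, log2; 95% interval -0.65 to 0.56, adjusted p 0.992, limma). The dimmer probe set gave -0.14 ± 0.23 (adjusted p 0.958, limma).

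HDAC9, a class IIa enzyme best known from muscle and regulatory T cells, had 1 tested probe set. It ranged from 8.17 to 8.78 in controls (median 8.26) and from 7.49 to 8.88 in CR animals (median 8.46). A total of 3 CR animals lay below every control and 1 above, and the difference was -0.11 ± 0.22 (SE, log2; 95% interval -0.58 to 0.35, adjusted p 0.965, limma). The other 2 HDAC9 probe sets lay below the filter. The dimmest was at the floor in all 7 controls and in 5 CR animals.

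In class IIb, HDAC10 had the largest difference among the members, with CR animals lower in its brightest probe set (-1.14 ± 0.53 log2 units, SE). Controls ranged from 6.75 to 7.79 (median 7.45) and CR animals from 4.14 to 8.04 (median 6.70). The CR animals fell into a wide range: CR 1 (4.14), CR 4 (4.57), CR 2 (5.37) and CR 5 (6.70) lay below every control, CR 3 (7.23) and CR 7 (7.55) lay within the control range, and CR 6 (8.04) above it. The SD was 1.53 in CR animals and 0.40 in controls, n = 7 each. The signal in CR over that in controls was 0.454-fold, with a 95% interval of 0.209 to 0.983 before correction (unadjusted p 0.0456, adjusted p 0.918, limma). Its mean over the arrays, 6.80, lies close to the lowest mean tested (6.45), so these are dim values. Of the 9355 genes, each by its brightest tested probe set, 0.321% had a larger absolute difference than this HDAC10 probe set. As small an unadjusted p was found for 4.71% (limma).

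The second HDAC10 probe set, as dim as the first with a mean of 6.71, did not rank the animals in the same order. It ranged from 5.73 to 7.35 in controls and from 4.76 to 7.77 in CR animals, where CR 3 (4.76) and CR 4 (5.22) were lowest and CR 2 (7.77) was highest. The difference was -0.29 ± 0.45 (SE, log2; 95% interval -1.23 to 0.65, adjusted p 0.957, limma). With the HDAC10 probe sets averaged it was -0.72 ± 0.36 (SE, unadjusted p 0.065, adjusted p 0.915, limma). Across the 14 arrays the HDAC10 probe sets correlated at r = 0.025 (rho 0.029, permutation p 0.942 and 0.927, adjusted p 0.971 for r), and at -0.25 without CR 1 and CR 4. CR 1 and CR 2 were low in the first and among the highest in the second.

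HDAC6, the tubulin deacetylase, was below the filter in both probe sets and was not tested. The brighter ranged from 4.89 to 7.60 in controls (median 6.11) and from 5.07 to 7.66 in CR animals (median 6.61), and 5 CR animals lay above the control median. The dimmer was at the floor in 5 controls and 3 CR animals. No direction was read from these values.

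Of the 7 members with a tested probe set, 2 were higher and 5 lower in CR animals, and the median over these 7 was -0.045 log2 units. Over all 26383 tested probe sets 48.1% had a difference above 0 and 51.9% below. Over the 9355 genes with a tested probe set the median difference was 0.025, and 46.0% were below 0. HDAC3 and HDAC5 had differences smaller in size than 90.6% and 85.8% of genes. The members' differences are therefore spread on both sides of the background median, and the signs of HDAC1, HDAC2, HDAC3, HDAC5 and HDAC9 changed under at least 1 alternative processing or left-out array. For HDAC3 centring each array on its median turned the sign (0.0045).

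**Figure D3:**
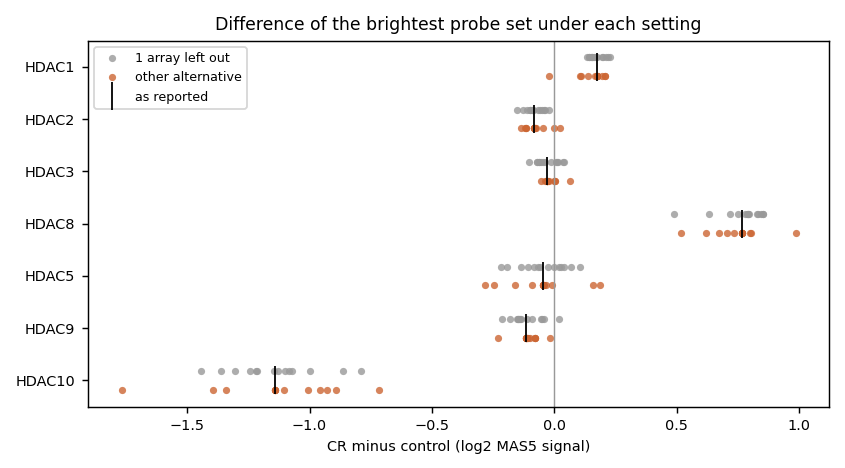
Difference CR minus control (log2 MAS5 signal, horizontal axis) of the 7 tested members. Black bars are the reported values, grey points fits with 1 of the 14 arrays left out, and orange points the other alternatives, including averages over all tested probe sets of a gene. HDAC8 stays above 0 (0.49 to 0.99) and HDAC10 below 0 (-1.77 to -0.72) in the settings run. The sign turns in 1 setting each for HDAC1, HDAC2 and HDAC9, and in more for HDAC3 and HDAC5.

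HDAC levels also varied between animals of the same diet, and the brightest HDAC1 and HDAC5 probe sets correlated with monocyte markers without passing the adjustment. All 13 tested monocyte markers were lower in CR animals without any passing the test (median -0.46 log2 units, 0 at an unadjusted p under 0.05). Their score, the mean centred log2 value, ran from -0.73 to 0.86 in controls and from -1.54 (CR 6) to 0.83 (CR 1) in CR animals. The brightest HDAC1 probe set correlated negatively with this score over the 14 arrays (r = -0.698, rho -0.675, permutation p 0.0056 and 0.00988, adjusted p 0.166 for r over 53 relations). The correlation was -0.56 without CR 6 and CR 7, the arrays farthest from the median score, -0.22 within controls and -0.83 within CR animals. The brightest HDAC5 probe set correlated positively with the score (r = 0.693, rho 0.60, permutation p 0.00626 and 0.0261, adjusted p 0.166 for r). For HDAC5 r was 0.672 without CR 6 and CR 7, 0.56 within controls and 0.833 within CR animals. Neither relation passed the adjustment, and the part of monocyte number in them was not tested. The dimmer probe sets of both genes were not set against the score. They correlated with the brightest at r = 0.232 for HDAC1 and -0.21 for HDAC5 (permutation p 0.429 and 0.474). CR 7 was lowest of all arrays for the brightest HDAC5 probe set (9.55) and highest for the dimmer (7.83). Both relations are therefore shown for 1 probe set per gene only.

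The brightest HDAC10 probe set, the only one of its gene set against the monocyte score, also ran against it among CR animals. Its highest CR values were in CR 6 and CR 7, the arrays lowest in monocyte markers, and its lowest in CR 1. Its r with the monocyte score was -0.41 over the 14 arrays (rho -0.46, permutation p 0.141 and 0.106, adjusted p 0.536 for r), -0.80 within CR animals, -0.41 within controls and -0.23 without CR 6 and CR 7. Without those 2 arrays the HDAC10 difference between diets was -1.77 ± 0.48 (SE, unadjusted p 0.00208, adjusted p 0.809, limma). With the 4 cell scores as covariates it was -1.40 ± 0.58 (SE, unadjusted p 0.030, limma). CR 6 and CR 7 hold the highest HDAC10 values among CR animals, so leaving them out could only widen this difference. The 3-prime to 5-prime log2 ratio of the GAPDH control probe sets, a measure of RNA integrity, ran from 5.06 to 7.50 in controls (median 6.06) and from 6.03 to 6.87 in CR animals (median 6.62), so its median was higher in CR. With it as a covariate the HDAC10 difference was -1.34 ± 0.56 (SE, unadjusted p 0.0296, adjusted p 0.687, limma). That of HDAC8 was 0.99 ± 0.32 (SE, unadjusted p 0.00686, adjusted p 0.65, limma), its smallest unadjusted p in the settings run.

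**Figure D4:**
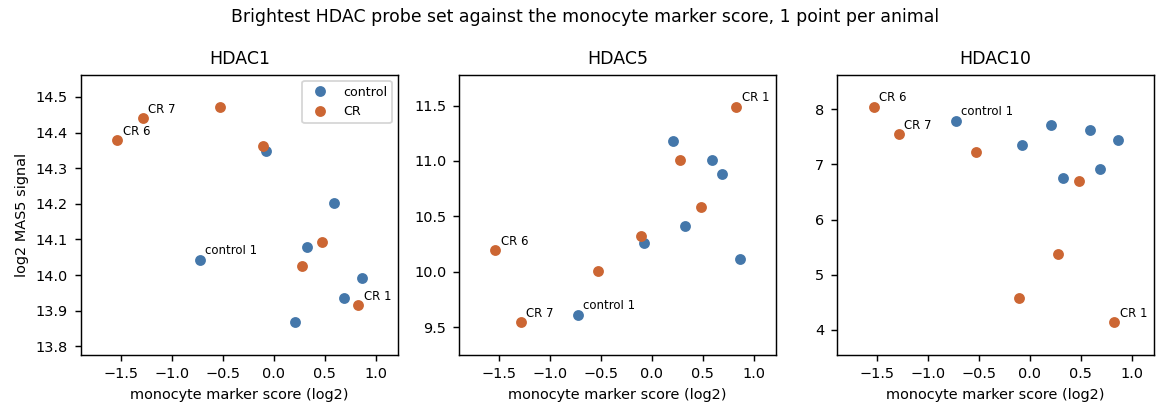
Log2 MAS5 signal of the brightest HDAC1, HDAC5 and HDAC10 probe sets (vertical axes, each with its own range) against the monocyte marker score (horizontal axis), 1 point per animal, controls in blue and CR in orange. Over the 14 animals r is -0.698 for HDAC1 and 0.693 for HDAC5, and CR 6 and CR 7 hold the lowest scores.

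Members were also compared with each other across animals. Of the 21 pairs of tested members, 15 had a positive r and 0 passed the adjustment over the 53 relations. HDAC2 and HDAC3 varied together (r = 0.575, rho 0.635, permutation p 0.0337 and 0.0173, adjusted p 0.447 for r), with 0.866 within controls, 0.181 within CR animals and 0.777 without control 1 and CR 1. HDAC1 and HDAC5 ran against each other (r = -0.617, rho -0.657, permutation p 0.0197 and 0.0124, adjusted p 0.348 for r), with -0.93 within CR animals, -0.25 within controls and -0.47 without CR 3 and CR 7. These arrays share 1 scaling step per array, and no test compared the diets' correlations. Between probe sets of 1 gene r was low for each of the 4 genes with 2 tested probe sets: 0.315 for HDAC2 (rho 0.459, permutation p 0.272 and 0.10), 0.232 for HDAC1 (rho 0.262, p 0.429 and 0.367), -0.21 for HDAC5 (rho -0.16, p 0.474 and 0.583) and 0.025 for HDAC10. Their adjusted p for r lay between 0.601 and 0.971. Without the 2 arrays farthest from the median r was 0.711 for HDAC2, 0.237 for HDAC1 and 0.287 for HDAC5.

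The partners of the deacetylases showed no called difference either. Of 101 genes in 10 lists of complex subunits, substrates, opposing enzymes and readers, 70 had a tested probe set, 39 higher and 31 lower in CR animals, and their median was 0.047 log2 units. The fit called 0, and 2 had an unadjusted p under 0.05, which is 2.86% of these genes against 5.12% of all tested probe sets. These were CTTN and KAT8, both on the higher side, where the share over all tested probe sets was 2.29%.

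Subunits of the class I complexes lay on both sides. In the SIN3 complex 7 of 13 tested genes were higher (median 0.021). ING2, which binds methylated histone H3, was at 0.34 ± 0.21 (SE) and the scaffold SIN3B at 0.49 ± 0.36. SAP18 was at -0.24 ± 0.15, with other probe sets from -0.17 to 0.087, and ARID4B at -0.25 ± 0.19. In NuRD, which joins deacetylation to chromatin remodelling, 3 of 5 were higher (median 0.074), with MTA2 at 0.38 ± 0.28, the histone binder RBBP7 at 0.074 ± 0.13, MTA1 at -0.13 ± 0.20 and MTA3 at -0.032 ± 0.22.

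CoREST subunits stood mostly on the lower side, with 6 of 7 lower in CR (median -0.23), none passing. The scaffold RCOR1 was at -0.31 ± 0.19 (SE, adjusted p 0.923, limma), and 2 CR animals lay above the control median. PHF21A was at -0.23 ± 0.15, and its other probe set at -0.42. HMG20B was the member on the higher side (0.19 ± 0.28). All 3 tested genes of the NCoR and SMRT complex were higher (median 0.094), with CORO2A at 0.65 ± 0.52 and the corepressor NCOR1 at 0.094 ± 0.14. For CORO2A, control 4 lay far below the other controls (4.24, next 7.14), and 4 CR animals lay above the control median. Other probe sets of NCOR1 ran from -0.44 to 0.031. In MiDAC, MIDEAS was at -0.52 ± 0.31, TRERF1 at 0.10 ± 0.33 (another probe set, -0.012) and DNTTIP1 at 0.0025 ± 0.15 (median of the 3, 0.0025).

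Among 19 tested class IIa partners, 11 were higher (median 0.084) and 0 reached an unadjusted p under 0.05. CABIN1, a repressor of MEF2 and calcineurin, was at 0.45 ± 0.23 (SE), and MARK2, a kinase that phosphorylates class IIa enzymes, at 0.34 ± 0.19. For both genes every CR animal exceeded the control median (adjusted p 0.918 each, limma). MEF2C was at -0.33 ± 0.27, with other probe sets from -0.32 to 0.017, and CAMK2G at -0.14 ± 0.15, where its other probe sets had the opposite sign (0.20 and 0.26). Of 5 tested HDAC6 substrates and partners, 4 were higher (median 0.086). CTTN (cortactin, an actin regulator) was at 1.11 ± 0.48, from 6.18 ± 1.07 (SD, n = 7) in controls to 7.29 ± 0.92 in CR, and every CR animal exceeded the control median (adjusted p 0.918, limma). It was a dim probe set. TUBA4A was at 0.21 ± 0.16 and SQSTM1 at -0.014 ± 0.22.

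Histone acetyltransferases, which add the groups that the deacetylases remove, were higher in 7 of 13 tested genes (median 0.051). KAT8, which acetylates histone H4, differed by 0.50 ± 0.21 (SE, adjusted p 0.918, limma), from 9.87 ± 0.44 (SD, n = 7) in controls to 10.37 ± 0.36 in CR animals. Its 2 other probe sets both gave 0.016. NAA60 was at 0.15 ± 0.17 (another probe set, -0.34), NCOA3 at -0.31 ± 0.19 (others from -0.63 to 0.026) and HAT1, which acetylates newly made histones, at -0.24 ± 0.16. The BET readers of acetylated lysine BRD3 and BRD2 were at 0.20 ± 0.15 and 0.042 ± 0.16 (median 0.12), with other BRD2 probe sets from -0.41 to 0.10. HDAC11, the class IV deacetylase, was at -0.040 ± 0.24.

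**Figure D5:**
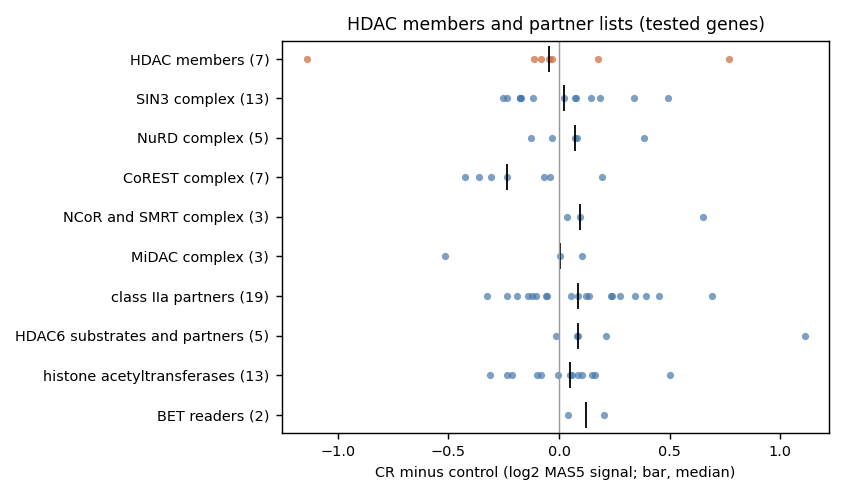
Difference CR minus control (log2 MAS5 signal, horizontal axis) of the tested HDAC members (orange) and of each partner list (blue), 1 point per gene, with black bars at the list median and the number of genes in brackets. List medians lie between -0.23 (CoREST) and 0.12 (BET readers), and HDAC10 (-1.14) and CTTN (1.11) lie at the ends.

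The other blood cell lists also held no gene that passed the test (0 called in limma). T cell markers were higher in 7 of 8 tested genes (median 0.30, 3 at an unadjusted p under 0.05). B cell markers were higher in 7 of 8 (median 0.22, 0 such genes) and NK and cytotoxic markers in 10 of 12 (median 0.52, 5 such genes). The genes at an unadjusted p under 0.05 were all on the higher side, where the share over all tested probe sets was 2.29% (limma). Neutrophil markers were lower in 5 of 5 (median -0.46), platelet markers in 5 of 8 (median -0.065), dendritic cell markers in 4 of 6 (median -0.087) and plasma cell markers in 4 of 7 (median -0.013), and HBB was the 1 tested erythroid gene (0.25). The part of these markers in the HDAC differences was not tested beyond the fit with cell scores.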

How the data were processed

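The deposited table holds linear MAS5 intensity values made by the authors, 1 per probe set and array. The submitters' processing notes name MAS5 and no version. The mean without the lowest and highest 2% was 500.04 on all 14 arrays, so total brightness had been equalised. How probe sets were defined or filtered is not given in the sources used here.

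Signals under 16 were set to 16 and log2 was taken. After removal of 99 AFFX control probe sets, the 50% with the higher mean (geometric mean signal of at least 87.7) were tested. Of all probe sets, 24969 carried 1 gene symbol, 361 several and 27535 none. The Entrez ID of 24629 was found in a current rhesus table, with 0 differing symbols. A gene is represented by its brightest tested probe set.

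CR minus control was fitted with limma 3.58.1 in R 4.3.3 (lmFit, eBayes with a trend, no covariate), two-sided, adjusted by Benjamini-Hochberg over the tested probe sets, and checked on simulated data. The median SE was 0.25, and the number of arrays limits precision. The limma p-values set each mean difference against the variation between animals of the same diet, with variances moderated over the probe sets.

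Correlations (28 of members with 4 cell scores, 21 between members, 4 between probe sets) used two-sided permutation tests with 100000 resamples in Python 3.11.15, adjusted over the 53. Named genes are all members and, from each partner list, the 2 genes with the smallest p in each direction. HDAC members, gene lists and rules were chosen with earlier results of these data known. Both diets carry replicate numbers 1 to 7, which were not used as a block.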

Additional observations from a re-analysis of the deposited data

Results flagged for a closer look

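In 6 of the 90 sets of 7 arrays examined (HDAC probe sets, cell scores and named partner genes, by diet), 1 array lay apart from the other 6 by more than 0.568 of the range. Chance gives about 1 in 20. Control 1 was lowest for HDAC8 (5.19, next 6.77, gap 0.72 of the range). CR 2 was lowest for the dimmer HDAC1 probe set (8.29, next 9.06, gap 0.646). CR 5 had the lowest NK and cytotoxic score among CR animals (-0.17, next 0.18, gap 0.626). Among partners, control 2 was lowest for MTA2 (6.25, next 7.27, gap 0.586), control 4 for CORO2A (4.24, next 7.14, gap 0.662) and CR 7 for BRD3 (10.81, next 11.15, gap 0.597).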

How the results depend on the processing

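Under the 14 processing and sample alternatives and the 14 fits without 1 array, limma called 0 probe sets, 0 members and 0 partner genes, and the smallest adjusted p over all probe sets ran from 0.067 (cell score covariates) to 0.994. The median difference of the members ran from -0.092 to 0.064, and from -0.15 to 0.019 with 1 array left out. HDAC8 stayed above 0 (0.52 to 0.99, and 0.49 to 0.85 with 1 array left out) and HDAC10 below 0 (-1.77 to -0.72, and -1.44 to -0.79). HDAC8, HDAC9 and HDAC10 have no value in the upper 25% by mean.

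The sign turned for HDAC3 with median centring (0.0045), the GAPDH covariate (0.064) and without CR 6 and CR 7 (0.0041), for HDAC5 with the GAPDH covariate (0.16) and without CR 6 and CR 7 (0.19), for HDAC2 with cell score covariates (0.024) and for HDAC1 with the mean of probe sets (-0.021). With 1 array left out, HDAC3 ran from -0.11 to 0.039, HDAC5 from -0.22 to 0.11 and HDAC9 from -0.21 to 0.019. The cause was not tested, beyond HDAC1, whose probe sets have opposite signs. With 1 array left out, the unadjusted p of HDAC10 was lowest without CR 6 (0.0107) and highest without CR 1 (0.112). That of HDAC8 was lowest without control 2 (0.0221) and highest without CR 4 (0.0711).

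Of the 53 correlations, 0 passed, and with 1 array left out 0 to 1 did: HDAC5 with the monocyte score without control 5 (r = 0.807, permutation adjusted p 0.0408) and HDAC2 with HDAC3 without CR 1 (r = 0.827, permutation adjusted p 0.0217). These alternatives were chosen after seeing the data.

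With the replicate number as a block, 0 probe sets were called and 1735 had an unadjusted p under 0.05, against 1350 without. Same-numbered arrays were correlated on their deviations from the diet mean of each tested probe set, not on their signals. These correlations ran from -0.11 to 0.18, over 0.1 in 4 of 7 pairs. Other pairs of a control and a CR array had a median of -0.012. As 3 pairs were lower and 1 of 7 controls correlated best with its own number, the arrays were not treated as paired.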

Other observations

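The HDAC9 probe sets below the signal filter were brightest in the same CR animals, a pattern picked out after the values were seen. The second was at 6.54 in CR 2 and 5.79 in CR 5, and the third at 5.80 and 5.56, while the third was at the floor on the other 12 arrays. In the brightest HDAC9 probe set CR 2 was the lowest of the 14 arrays (7.49) and CR 5 was at 8.50. Without the filter the differences of these dim probe sets were 0.11 ± 0.43 and 0.48 ± 0.29 (SE, log2 units, adjusted p 0.994 and 0.957, limma).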
